A study of Mus musculus with 12 samples.

Results

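The interferon regulatory factor (IRF) genes counted in hippocampal microglia comprised Irf1, Irf3, Irf4, Irf5, Irf7 and Irf8, taken as every endogenous symbol made of Irf and a digit. They were 6 of the 545 endogenous genes in the raw table, and all 6 were above background in all 12 samples. Microglia, the resident macrophages of brain tissue, came from male BALB/c pups reared under control conditions, at postnatal day 14 (P14, n = 6) or postnatal day 28 (P28, n = 6). Each animal came from its own litter, and cells were purified on Percoll and sorted by flow cytometry before RNA was counted on a NanoString nCounter immune panel, which tallies fluorescent barcodes bound to each target. Stressed animals of the study were not analysed here, and samples are named by their age and the number in their titles.

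IRF proteins share a DNA-binding domain that recognises GAAA-containing elements in the promoters of interferon-stimulated genes, and differ in the signals that switch them on. IRF3 and IRF7 lie downstream of nucleic acid sensors and drive type I interferon genes, IRF5 relays Toll-like receptor signals toward inflammatory cytokines, and IRF1 is itself induced by interferon gamma. IRF4 and IRF8 belong to the lymphoid and myeloid branch of the family and bind DNA together with partners such as PU.1. IRF8 is required for normal microglial development, and IRF5 and IRF8 have been studied in reactive microglia after nerve injury.

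The 545 endogenous genes summed to between 356398 and 1534665 raw counts per sample. Raw counts of single IRF genes ranged from 26 (Irf4 in P14 sample 5) to 4822 (Irf5 in P28 sample 118), against lane thresholds for background of 12.9 to 33.4. Values below are scaled counts, which are raw counts divided by the lane's geometric mean of 6 reference genes and set to a mean factor of 1. The positive-control probes, spiked at fixed amounts, were brighter in every P28 lane than in every P14 lane. Their geometric means were 1069 to 1235 against 542 to 651, so lane chemistry and age cannot be told apart. Reference-gene scaling and ratios within a lane take off a factor shared by all probes of a lane, but not an effect on single probes. P14 samples 4 and 5, which had the lowest total counts of their age, stood apart for several IRF genes, and results that rest on them are given with and without them. In bulk RNA, a lower level may come from fewer cells that express a gene or from less RNA per cell, and these cannot be told apart.

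Promoter windows of the IRF genes, from 250 bases before to 50 bases after an annotated start, were taken from RefSeq (GRCm38.p6), and the 5 shown belong to the genes of the ratios plotted further on. All 6 genes matched a RefSeq record by accession, and together they had 8 windows. Capitals mark matches to the interferon gamma activated site, TTCNNNGAA, and to the TATA box, TATAAA, searched on both strands.
Irf4, chr13:30748983-30749282, plus strand: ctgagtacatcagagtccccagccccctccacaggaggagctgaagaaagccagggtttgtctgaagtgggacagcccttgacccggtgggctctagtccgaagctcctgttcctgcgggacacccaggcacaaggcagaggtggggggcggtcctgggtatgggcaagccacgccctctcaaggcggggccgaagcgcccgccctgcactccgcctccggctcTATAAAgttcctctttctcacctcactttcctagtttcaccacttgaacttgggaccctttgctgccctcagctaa
Irf3, chr7:44997398-44997697, plus strand: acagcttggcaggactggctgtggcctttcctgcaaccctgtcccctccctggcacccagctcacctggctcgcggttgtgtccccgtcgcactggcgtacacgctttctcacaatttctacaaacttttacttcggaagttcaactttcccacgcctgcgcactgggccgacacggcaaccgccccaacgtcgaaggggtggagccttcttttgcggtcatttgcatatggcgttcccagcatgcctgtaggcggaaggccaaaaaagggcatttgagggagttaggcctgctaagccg
Irf8, chr8:120736108-120736407, plus strand: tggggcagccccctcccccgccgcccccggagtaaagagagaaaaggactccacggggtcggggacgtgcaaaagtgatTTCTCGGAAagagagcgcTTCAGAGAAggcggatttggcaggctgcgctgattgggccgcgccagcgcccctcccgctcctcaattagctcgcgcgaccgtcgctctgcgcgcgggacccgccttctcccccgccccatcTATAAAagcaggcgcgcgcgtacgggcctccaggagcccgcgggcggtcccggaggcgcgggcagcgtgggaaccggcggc
Irf5, chr6:29526375-29526674, plus strand: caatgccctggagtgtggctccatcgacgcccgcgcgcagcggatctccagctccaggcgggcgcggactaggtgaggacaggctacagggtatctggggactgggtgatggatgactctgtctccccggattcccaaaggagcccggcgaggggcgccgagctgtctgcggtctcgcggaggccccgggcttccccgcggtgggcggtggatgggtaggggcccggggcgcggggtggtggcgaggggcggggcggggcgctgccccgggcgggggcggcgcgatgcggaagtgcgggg
Irf1, chr11:53769764-53770063, plus strand: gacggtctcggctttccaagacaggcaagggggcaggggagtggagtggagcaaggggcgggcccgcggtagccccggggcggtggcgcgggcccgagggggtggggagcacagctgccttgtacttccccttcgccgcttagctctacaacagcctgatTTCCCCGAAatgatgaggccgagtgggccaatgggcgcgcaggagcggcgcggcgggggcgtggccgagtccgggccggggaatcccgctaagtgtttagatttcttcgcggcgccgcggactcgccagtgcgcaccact
Irf8 held 2 activated-site matches, which began 171 and 153 bases upstream of the start, and Irf1 held 1, which began 90 bases upstream. Such a match was found in 8.30% of 32851 mouse windows of the same length. Irf4, Irf7 and Irf8 each held a TATA box, beginning 26, 29 and 31 bases upstream, against 13.6% of all windows. None of the 8 IRF windows held the IRF core AANNGAAA (23.9% of all windows) or the ETS-IRF composite GGAANNGAA (8.24%), also searched on both strands. A composite followed by A contains the core. These matches describe the letters of the windows and no factor was measured at them.

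Irf4 and Irf5 had more scaled counts at P28 than at P14 and Irf7 had fewer, while Irf1, Irf3 and Irf8 lay close to their P14 means, but 0 of the 6 IRF genes passed an FDR of 0.05. Of all 366 genes tested, 30.6% passed in edgeR's quasi-likelihood test, 16.7% higher and 13.9% lower at P28. The same test gave 3 IRF genes (Irf4, Irf5 and Irf7) an unadjusted p under 0.05, against 43.2% of all genes. DESeq2 called 1 IRF gene higher, Irf4, where 18.6% of all genes were, and limma on scaled counts also called Irf4, where 16.7% were. Limma on the authors' values called 2, Irf4 and Irf5, where 26.6% of all genes were called higher. The ages overlapped for all 6 IRF genes, whereas 20.8% of the genes tested did not overlap.

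**Figure D1:**
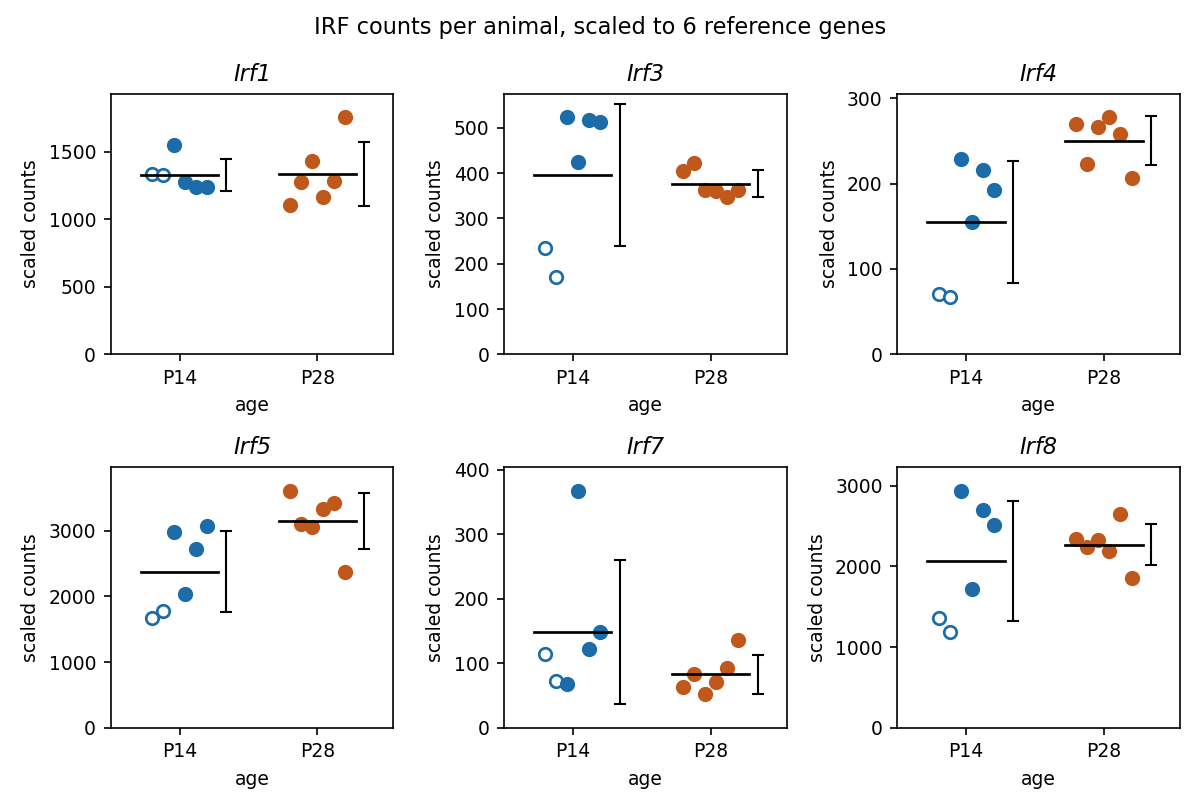
Scaled counts (y axis) of each IRF gene in 6 animals at P14 and 6 at P28 (x axis), where points are animals, lines are means, bars are ± SD and open circles mark P14 samples 4 and 5. Those samples are the lowest of all 12 for Irf3, Irf4, Irf5 and Irf8 but lie in the middle of the range for Irf1, and P14 sample 25 stands alone at the top for Irf7.

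Irf4, known from plasma cells, T cells and alternatively activated macrophages, had scaled counts of 67.0, 174 and 228 at P14 (lowest, median and highest) and of 207, 262 and 278 at P28. Of the P28 samples, 4 of 6 lay above the highest P14 sample and all 6 above the P14 median. Its mean went from 155 ± 71.2 scaled counts to 250.1 ± 28.6 (SD, n = 6 per age), a log2 fold change of 0.67 ± 0.27 (SE, adjusted p = 0.0789). P14 samples 4 and 5 had 70.6 and 67.0 scaled counts, from only 52 and 26 raw counts, while the other P14 samples had 156 to 228. Without those samples the log2 fold change was 0.34 ± 0.14 (adjusted p = 0.0625). Leaving out P14 sample 16 instead gave a call (0.81 ± 0.28, adjusted p = 0.0415). In the authors' deposited table Irf4 had a fold of 1.78 with a p-value of 0.0023.

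Irf5, which acts behind MyD88, ran from 1675 to 3077 scaled counts at P14 with a median of 2378, and from 2375 to 3607 at P28 with a median of 3211. Of 6 P28 samples, 4 lay above every P14 sample, and P28 sample 138 was the lowest of its age. The log2 fold change was 0.40 ± 0.17 (2377 ± 623 to 3147 ± 430 scaled counts, adjusted p = 0.0865), and 0.22 ± 0.14 without P14 samples 4 and 5. It was called without P14 sample 16 (0.48 ± 0.17, adjusted p = 0.0480), P14 sample 81 (0.49 ± 0.17, adjusted p = 0.0424) or P28 sample 138 (0.47 ± 0.16, adjusted p = 0.0429). The authors' deposited table gave it a fold of 1.45 with a p-value of 0.0038.

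Irf8 had scaled counts of 1185, 2117 and 2939 at P14 and of 1859, 2289 and 2647 at P28 (lowest, median and highest). All P28 samples fell within the P14 range. Its log2 fold change of 0.13 ± 0.21 (2070 ± 743 to 2270 ± 255 scaled counts, adjusted p = 0.681) had a 95% interval from -0.33 to 0.59, and it was -0.12 ± 0.14 without P14 samples 4 and 5. That interval covers differences of either sign.

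Irf3, the latent factor activated by the kinase TBK1, split the P14 animals. P14 samples 4 and 5 had 234 and 170 scaled counts and the other P14 samples 423.5 to 523, while P28 ran from 347 to 423.2 with a median of 362. The log2 fold change was -0.08 ± 0.24 over all samples (397 ± 157 to 377 ± 29.9 scaled counts, adjusted p = 0.822). Without P14 samples 4 and 5 it was -0.39 ± 0.10 (adjusted p = 0.00674), and all 6 P28 samples then lay below every P14 sample, as 15.0% of the genes tested did, though the nearest values were only 0.3 scaled counts apart. On that smaller set Irf3 and Irf7 were the IRF genes called lower, as were 24.6% of all genes, and with the authors' factors both calls were lost (-0.24 ± 0.10, adjusted p = 0.0804, for Irf3 and -0.94 ± 0.40, adjusted p = 0.0795, for Irf7).

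Irf1, a direct target of interferon gamma signalling, had scaled counts of 1237, 1301 and 1550 at P14 and of 1104, 1281 and 1757 at P28 (lowest, median and highest). The coefficient of variation was 8.77% at P14 and 17.6% at P28, and P28 sample 138 was the highest of all 12 samples. Its log2 fold change was 0.0078 ± 0.12 (adjusted p = 0.976), with a 95% interval from -0.26 to 0.28. Unlike Irf3, Irf4, Irf5 and Irf8, it did not separate P14 samples 4 and 5 (1339 and 1327 scaled counts) from the others of their age.

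Ratios of 2 IRF genes within a sample do not depend on the scaling, though a lane effect on single probes would remain in them. They showed that Irf4 gained on Irf3 and on Irf8 between the ages. The log2 ratio of Irf4 to Irf3 was -1.71, -1.36 and -1.19 at P14 (lowest, median and highest) and -0.92, -0.51 and -0.38 at P28. All 6 P28 samples exceeded all 6 P14 samples, and the difference of the means was 0.79 on the log2 scale, or 1.73-fold. For Irf4 over Irf8 the log2 ratio was -4.24, -3.69 and -3.46 at P14 and -3.35, -3.14 and -2.98 at P28, again with no overlap and with a difference of 0.63, or 1.54-fold. Both had an exact two-sided permutation p of 0.00216, the smallest that 924 arrangements allow, and an adjusted p of 0.00994 over all 66795 pairs of tested genes. That smallest p, which means no overlap between the ages, was reached by 21.8% of all pairs.

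Of the 15 ratios among the 6 IRF genes, these 2 passed an FDR of 0.05 over all pairs, against 36.3% of all pairs of tested genes. An unadjusted exact permutation p under 0.05 was found for 6 of 15, against 45.5% of all pairs. Without P14 samples 4 and 5, 4 of 15 passed, against 39.0%. Irf4 over Irf3 and Irf4 over Irf8 kept their sign and their call without P14 samples 4 and 5 (differences of 0.73 and 0.44, adjusted p = 0.0178 each by the exact permutation test), without each sample in turn (0.73 to 0.86 and 0.54 to 0.69) and after background subtraction (0.89 and 0.74, where 34.6% of all pairs passed). With no overlap between the ages, leaving out samples could not change the sign and kept the exact p at or near its smallest value. The results with samples left out are therefore not separate support. Irf5 over Irf8 differed by 0.23, with adjusted p = 0.109 by the same exact permutation test over all samples and 0.33 with adjusted p = 0.0178 without P14 samples 4 and 5. Irf5 over Irf3 went the same way (0.39 and adjusted p = 0.138, against 0.61 and adjusted p = 0.0295 without those samples, exact permutation test). The ratios of Irf4, Irf5 and Irf8 over the variable Irf7 differed most in size but did not pass. Irf4 over Irf7 differed by 1.49 and Irf5 over Irf7 by 1.09 (adjusted p = 0.0525 and 0.0903, exact permutation test). Without P14 sample 16 they were called at 1.81 and 1.34 (adjusted p = 0.0238 and 0.0347, exact permutation test), and without P28 sample 138 at 1.70 and 1.33 (adjusted p = 0.0386 each, exact permutation test). Irf4 over Irf1 differed by 0.84 (adjusted p = 0.0783, exact permutation test). It was called without P14 sample 61 (0.98, adjusted p = 0.0490) or P28 sample 138 (0.97, adjusted p = 0.0434, exact permutation test), and was 0.34 without P14 samples 4 and 5. Irf4 over Irf5 differed by 0.40 (exact permutation p = 0.0519, adjusted p = 0.113) and by 0.12 without those samples. Such a ratio shows unequal change and does not say which of its genes changed.

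**Figure D2:**
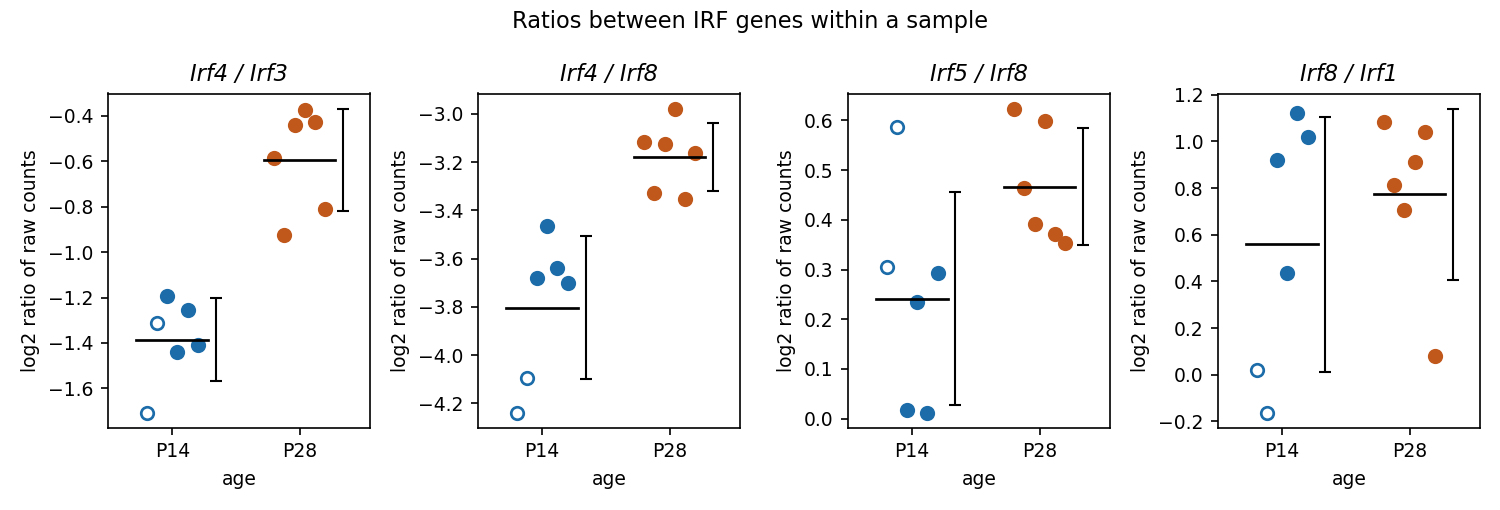
Log2 ratio of the raw counts of 2 IRF genes in the same sample (y axis) at P14 and P28 (x axis), with points for animals, lines for means, bars for ± SD and open circles for P14 samples 4 and 5. The ages do not overlap for Irf4 over Irf3 and Irf4 over Irf8, while they overlap for Irf5 over Irf8 and for Irf8 over Irf1.

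Irf7, the amplifier of type I interferon production and itself an interferon-stimulated gene, was set apart by 1 animal. Its scaled counts at P14 were 68.0, 118 and 367 (lowest, median and highest), and at P28 they were 51.7, 76.7 and 136. The highest belonged to P14 sample 25, which had 3.22 times the median of the other P14 samples, whose range ended at 148. The log2 fold change was -0.86 ± 0.38 (149 ± 111 to 82.9 ± 29.7 scaled counts, adjusted p = 0.101), and without that animal it was -0.35 ± 0.26 (adjusted p = 0.359). Without P14 samples 4 and 5 instead, it was -1.09 ± 0.39 (adjusted p = 0.0399), and -0.94 ± 0.40 (adjusted p = 0.0795) on the same samples with the authors' factors. The authors' deposited table gave a fold of 0.61 with a p-value of 0.2496.

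The same animal was high for some other genes induced by interferon. Mx1 and Ifit2 were named for their likeness to Irf7, which rests in part on this animal. Their high values in it are therefore not separate support. Mx1, an antiviral GTPase, had 380 scaled counts in P14 sample 25 and 92.7 to 151 in the other P14 samples, and Ifit2, an interferon-induced RNA-binding protein, had 197 against 33.5 to 59.3. Cxcl10, a chemokine induced by interferons and picked out here after its values were seen, had 459 against 36.1 to 79.4. Of 23 tested genes of the list of interferon-stimulated and IRF target genes, 6 were highest at P14 in sample 25, or 26.1%, against 44 of all 366 genes. The list as a whole had a median of 1.04 times the other P14 animals there, against 0.942 times for all 366 genes. The other IRF genes were not high in sample 25, from 0.687 times the median of the others for Irf8 to 0.962 times for Irf1. P28 sample 138 had the highest Irf7, Mx1, Ifit2 and Cxcl10 of its age, at 136, 128, 84.4 and 124 scaled counts. Mx1, Ifit2 and Cxcl10 were picked with this sample included, so its joint high values are not separate support either. How many of all genes were highest at P28 in this sample was not counted.

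**Figure D3:**
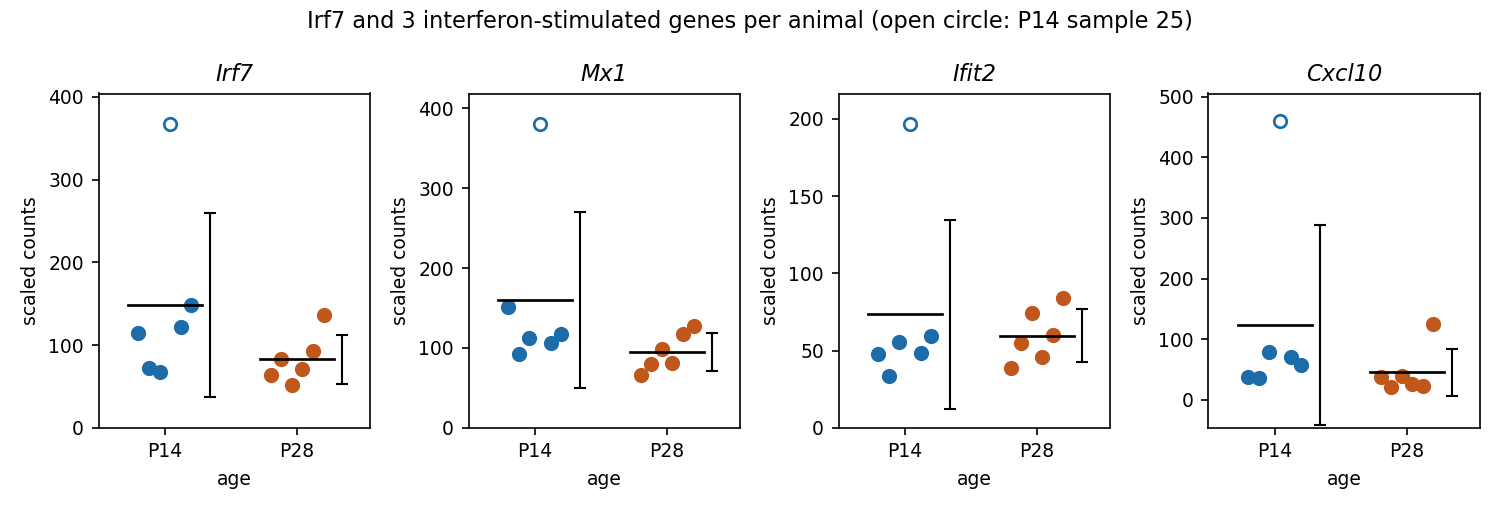
Scaled counts (y axis) of Irf7, Mx1, Ifit2 and Cxcl10 in each animal at P14 and P28 (x axis), where lines are means, bars are ± SD and the open circle is P14 sample 25. That sample is the highest of all 12 for each of these genes, at 367, 380, 197 and 459 scaled counts.

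Between animals of 1 age, Irf3, Irf4, Irf5 and Irf8 varied together and Irf1 and Irf7 did not follow them. Across 12 samples, after each age's mean was taken off the log2 scaled counts, Pearson's r was 0.94 for Irf4 with Irf8, 0.94 for Irf3 with Irf4 and 0.92 for Irf5 with Irf8. It lay between -0.37 and 0.03 for Irf1 with the other IRF genes. The points share the scaling and the 2 animals that stand apart: without P14 samples 4 and 5, over 10 samples, r was 0.85 for Irf4 with Irf8 and 0.86 for Irf5 with Irf8 but 0.38 for Irf3 with Irf4. Irf7 then ran opposite to Irf4 (-0.90), Irf8 (-0.84), Irf5 (-0.76) and Irf3 (-0.61), where over all samples it had ranged from -0.22 to 0.25. With P14 sample 25 left out as well, over 9 samples, these were -0.80, -0.61, -0.51 and -0.18.

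**Figure D4:**
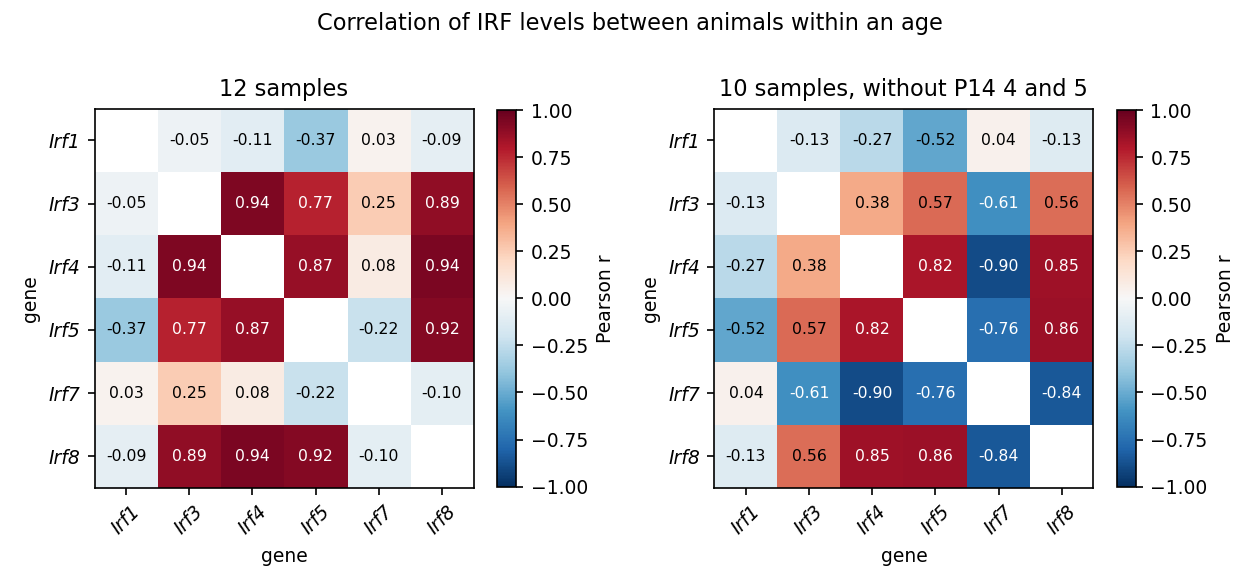
Pearson correlation (colour and number) between IRF genes of log2 scaled counts across animals after each age's mean was taken off, for 12 samples (left) and for 10 samples without P14 samples 4 and 5 (right), with genes on both axes. Irf4, Irf5 and Irf8 stay at 0.82 or above with each other on both sides, and Irf3 with Irf4 goes from 0.94 to 0.38.

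The genes whose levels most resembled each IRF gene between animals of 1 age were found by the same r over 12 samples. Irf8 was nearest to Entpd1, the ectonucleotidase CD39 (0.99), Itgb2, the shared chain of leukocyte integrins (0.98), and Tgfbr1, a TGF-beta receptor (0.98), and these stayed at 0.95 or above without P14 samples 4 and 5. Those near Irf5 included Tgfbr1 (0.96) and Tnfrsf11a (0.95), which stayed at 0.94 without them. Irf4 was nearest to Il13ra1, a chain of the interleukin-13 receptor (0.98), Tyrobp, the adaptor DAP12 (0.97), and Fcgr2b, the inhibitory Fc receptor (0.97). Those near Irf3 included Csf1r (0.97) and Itga6 (0.96), which went to 0.32 and 0.34 without P14 samples 4 and 5. Irf1 was nearest to Maf (0.86), Ltf (0.85) and Cmklr1 (0.85). Irf7 was nearest to Ccl6 (0.88), Mx1 (0.84) and Ifit2 (0.80), and without P14 sample 25 these were 0.80, 0.56 and 0.45. Many genes were about as close, with 51 above 0.9 for Irf8, 49 for Irf4, 38 for Irf3 and 22 for Irf5.

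P14 samples 4 and 5 had 0.347 times the Irf4 of the other P14 animals, 0.408 times the Irf3, 0.515 times the Irf8, 0.640 times the Irf5 and 1.0 times the Irf1, as ratios of mean scaled counts. The median of all 366 genes was 0.795. Reference genes outside the 6 used for scaling differed in the same samples: Gusb was at 0.324 times, Polr2a at 0.385 times and Eef1g at 0.469 times their level in the other P14 samples, while Rpl19 was at 1.49 times. The 6 used for scaling also differed there, from 0.733 times for Gapdh to 1.38 times for Sdha. The part of RNA quality or input in these differences was not tested. Between the ages, scaled Gapdh was higher at P28 without overlap (5528 to 6090 against 3535 to 5408). Polr1b (119 to 162 against 191 to 254) and Oaz1 (4424 to 5294 against 5493 to 6158) were lower without overlap. Alas1, Sdha and Tbp overlapped.

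Whether the higher values of Irf4 and Irf5 were called varied with the scale, as with the test and the samples above. Relative to the median of all genes, Irf4 and Irf5 lay above it in all 29 alternatives and Irf7 below it in all 29. The alternatives reuse the same animals, and the median moves with the scaling, so this agreement is largely built in and is not separate support. Calls in the direction of the main value numbered 9 for Irf4, 8 for Irf5 and 5 for Irf7. With the authors' factors the log2 fold changes of Irf4 and Irf5 were 0.81 ± 0.26 (adjusted p = 0.0238) and 0.53 ± 0.15 (adjusted p = 0.0143), where 25.4% of all genes were called higher, and both stayed called without P14 samples 4 and 5 (0.49 ± 0.13 and 0.37 ± 0.13), where 26.8% were. Both were also called with all 14 reference genes (0.77 ± 0.24 and 0.49 ± 0.13, with 24.3% of all genes) and with TMM (0.68 ± 0.22 and 0.39 ± 0.13, with 19.1%), and Irf4 alone with a pseudocount of 10 (16.9%). Where leaving out 1 sample gave a call, the share of all genes called higher was 18.3% without P14 sample 16, 17.5% without P14 sample 81 and 16.4% without P28 sample 138. Neither Irf4 (0.55 ± 0.27, adjusted p = 0.141) nor Irf5 (0.28 ± 0.17, adjusted p = 0.218) was called in edgeR without Polr1b. The same held with total counts (0.56 ± 0.25, adjusted p = 0.0926, and 0.27 ± 0.16, adjusted p = 0.190, edgeR). The median of all genes was -0.12 and -0.14 on these scales. With positive controls alone both Irf4 and Irf5 turned negative, to -0.17 and -0.38, as the median of all genes went to -0.74. Irf7 was then called lower (-1.65 ± 0.45, adjusted p = 0.00885), as were 35.0% of all genes, and with total counts it was called as well (-1.02 ± 0.37, adjusted p = 0.0401), as were 26.2%. Without P14 samples 4 and 5, total counts called Irf3 and Irf7 lower (30.1% of all genes), and positive controls alone called all 6 IRF genes lower (89.3%).

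**Figure D5:**
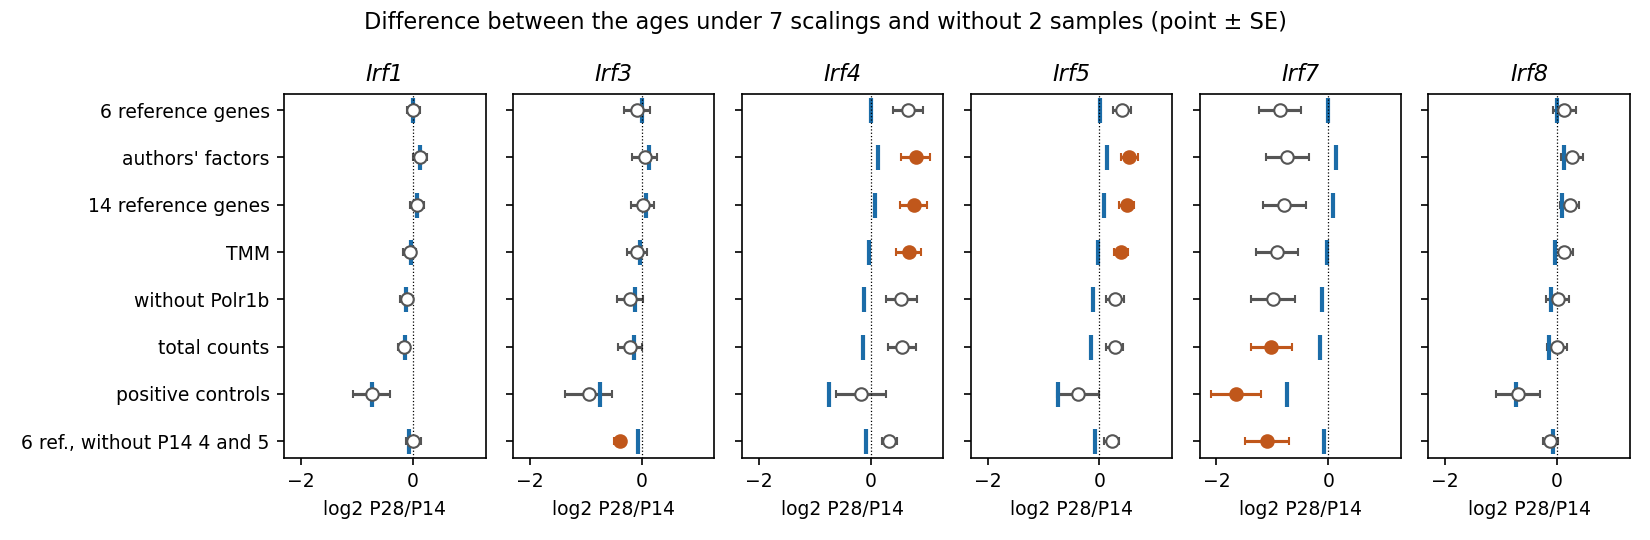
Log2 fold change of P28 over P14 (x axis, ± SE) for each IRF gene under 7 scalings and, in the bottom row, without P14 samples 4 and 5 (y axis). Filled orange points passed an FDR of 0.05 and blue ticks mark the median of all genes under that setting. Irf4 and Irf5 lie to the right of the tick in every row and Irf7 to the left, in rows that reuse the same animals.

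Among genes that act upstream of the IRF proteins, Tlr3, Irak2 and Tlr9 were higher at P28. Of 16 tested sensors, adaptors and kinases, 3 rose, 0 fell and 13 did not pass, where 16.7% of all genes rose and 13.9% fell, with a median log2 fold change of 0.10 against 0.0026 for all genes. Tlr3, the receptor for double-stranded RNA (0.65 ± 0.13), Irak2 (0.49 ± 0.12) and Tlr9, the receptor for CpG DNA (0.28 ± 0.10), rose. When positive controls alone set the scale, the 3 genes had negative values of -0.15, -0.31 and -0.45. The kinase Ikbke, which phosphorylates IRF3 and IRF7, had a log2 fold change of -0.98 ± 0.36 and did not pass (adjusted p = 0.0524). It was called lower without P14 samples 4 and 5 (-1.31, adjusted p = 0.00504) and with positive controls alone (-1.85, adjusted p = 0.00710), and DESeq2 called 1 gene of this list lower, where 16.4% of all genes were. Of 11 tested interferons, interferon receptors, JAK kinases and STAT factors, with a median of 0.10, 0 passed in edgeR, 2 had an unadjusted p under 0.05, DESeq2 called 0 higher and 1 lower and limma on scaled counts called 0. Without P14 samples 4 and 5, 2 were called lower, Stat3 (-0.39, adjusted p = 0.0185) and Ifngr1 (-0.32, adjusted p = 0.0147), where 24.6% of all genes were, and with positive controls alone 3 were, against 35.0%. Their lowest adjusted p-values belonged to Stat3 (-0.30 ± 0.13), Ifnar2 (0.23 ± 0.11), Ifngr2 (0.24 ± 0.16) and Ifngr1 (-0.16 ± 0.13). The interferon gene Ifna2 was above background in 5 of 6 samples at each age, at 27.1 ± 6.40 and 30.2 ± 5.57 scaled counts (log2 fold change 0.18 ± 0.17, adjusted p = 0.485), while Ifna1, Ifnb1 and Ifng were above background too rarely to be tested.

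Of 15 tested factors that share sites with IRF proteins, 3 rose and 2 fell, with a median of 0.08, where 16.7% of all genes rose and 13.9% fell. Both genes that fell code for NF-kB subunits, Relb at -0.78 ± 0.18 and Nfkb1 at -0.68 ± 0.18, while Rela (0.47 ± 0.15) and Runx1 (0.47 ± 0.12) rose and were at -0.32 and -0.31 with positive controls alone. Without P14 samples 4 and 5, Rela was at 0.36 and not called (adjusted p = 0.0625, edgeR). Of the 15 factors, 2 were then called higher and 3 lower, where 18.6% and 24.6% of all genes were. Of the 23 tested interferon-stimulated and IRF target genes, 6 rose and 4 fell, with a median of -0.10, against 16.7% and 13.9% of all genes. Without P14 samples 4 and 5, 6 were called higher and 8 lower, where 18.6% and 24.6% of all genes were. With positive controls alone 2 and 10 were, against 2.19% and 35.0%. Those with the smallest adjusted p were Cxcl9 (fitted value 2.49 ± 0.17, above background in only 2 of 6 P14 samples), Ctss (1.18 ± 0.10), Psmb10 (0.65 ± 0.09, and -0.088 with positive controls alone) and Cybb, the phagocyte oxidase chain, which was above background in 0 of 6 P14 samples and 6 of 6 P28 samples. Both Cxcl9 and Cybb are among the 6 genes that rose. Cybb was tested only because of its P28 samples, the age at which it was higher. Its rise is therefore not independent of how genes were kept for testing, and its P14 level was not measured above background. Cxcl9 was kept mostly by its P28 samples. The share of such genes among all those called higher was not counted. These lists were chosen with earlier results of these data known.

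The label of microglia was met by its markers, with Csf1r, Itgam, Cx3cr1, C1qa and Tyrobp above background in all 12 samples. Irf4 and Irf8 are also expressed by B cells and dendritic cells, so markers of those cells are given beside them. Of the B cell genes, Pax5 and Cr2 were above background in 0 of 12 samples and Ms4a1 in 3 samples at P14 and 4 at P28. Cd79b, a chain of the B cell receptor complex, was above background in all 12 and was lower at P28 (439 ± 87.9 to 191 ± 48.7 scaled counts, adjusted p = 0.000138). Its partner Cd79a was above background in 4 and 6 samples and was called higher (0.76 ± 0.18, adjusted p = 0.00483, and -0.0095 with positive controls alone). The 10 B and plasma cell genes on the panel summed to 4570 to 5899 scaled counts at P14 and to 6277 to 6735 at P28, mostly Xbp1 and Prdm1. Of the 7 tested, 3 were called higher and 1 lower (16.7% and 13.9% of all genes), and on the scale of the positive controls 0 and 2 (2.19% and 35.0%). Xbp1 had 0.50 ± 0.11 and Prdm1, which IRF4 regulates in plasma cells, had 0.31 ± 0.11, with -0.27 and -0.38 on that scale. The 5 dendritic cell genes on the panel summed to 917 to 1559 at P14 and to 1774 to 2242 at P28. These sums, mostly Cd83, did not overlap, nor did 20.8% of all single genes tested. Of the 3 tested, 2 were called higher and 0 lower (16.7% and 13.9% of all genes). Among them Itgax rose by 1.91 ± 0.22 on the log2 scale. Cd83 was also called, at 0.67 ± 0.16, though its sign turned to -0.12 under the positive-control scale. Batf3 had 0.24 ± 0.11 and did not pass, and Xcr1 was above background in 1 of 12 samples. The part of such cells in the values of Irf4 was not tested.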

How the data were processed

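Barcodes were counted on the nCounter panel from 2 ng of RNA after 5 rounds of PCR, per the labels' protocols. Whole counts of 573 probes were deposited by the authors as a raw table, of which 545 target endogenous genes, 14 are for reference genes and 14 are control probes. The deposited score table holds counts the authors scaled to positive controls and reference genes, per the labels, with their fold (a ratio of means) and p-value, which the file headers name a t-test. Counting software and the kind of test are not given in the sources used here. Sample columns were matched by the numbers in the titles, and columns that match no sample numbered 0.

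A gene was tested when its count exceeded the mean plus 2 SD of its lane's negative probes in at least 40% of samples (366 genes). The test was edgeR 4.0.16 (R 4.3.3; glmQLFit, glmQLFTest) on raw counts with the geometric mean of Alas1, Gapdh, Oaz1, Polr1b, Sdha and Tbp as offset and 1 term for age, and p-values were adjusted by Benjamini-Hochberg over all genes at 0.05. Intervals of 95% used the residual degrees of freedom. Ratios used log2(raw count + 1) and an exact two-sided permutation test; p-values were adjusted over all pairs of tested genes, in place of the IRF pairs alone as first planned. Alternatives used DESeq2 1.42.0, limma 3.58.1 with a pseudocount of 1 or 10, other scalings and filters, and samples left out. The edgeR, DESeq2 and limma tests were checked on simulated data with the same dispersion for every gene. PCR copies were counted without molecular identifiers, and counting error is therefore the least error possible. Named genes are all IRF genes, up to 4 tested genes per list with the smallest adjusted p, and the 3 genes most like each IRF gene; a few genes that this rule or the lists name are not reported here. Members and lists were chosen with earlier results of these data known.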

Additional observations from a re-analysis of the deposited data

Results flagged for a closer look

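Irf7 in P14 sample 25 had 367 scaled counts, far from the other P14 animals at 68.0 to 148. Irf1 in P14 sample 16 had 1550 scaled counts, against 1237 to 1339 in the other P14 animals, a gap of 0.675 of the whole range of that age. In all, 42 such checks for a sample far from its group were made over the IRF levels and their ratios, at a threshold set so that chance marks about 1 group in 20.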

How the results depend on the processing

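All 366 genes gave 61 calls higher and 51 lower at P28, and 0 and 0 of the IRF genes. IRF genes called higher numbered 1 with DESeq2, limma on scaled counts or a pseudocount of 10, and 2 with limma on the authors' values, all 14 reference genes, TMM or the authors' factors, with and without P14 samples 4 and 5. IRF genes called lower numbered 1 with total counts or positive controls alone, 2 without P14 samples 4 and 5 and on total counts without them, and 6 with positive controls alone without them. Leaving out each sample gave 0 to 2 IRF genes higher (2 without P14 sample 16, 1 without P14 sample 81 or P28 sample 138) and 0 lower. All genes called higher numbered 8 with positive controls alone, with and without those samples, 93 with the authors' factors and 98 on these without the samples. Those called lower numbered 26 with limma on the authors' values, 96 with total counts, 128 with positive controls alone, 90 without P14 samples 4 and 5, and 327 and 110 without them on positive controls and total counts. Combinations of a scaling with those samples left out were added after seeing the data.

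Signs turned as follows, and the cause was not tested. Irf1 went to -0.0046 (limma on scaled counts), -0.11 (without Polr1b), -0.16 (total counts), -0.058 (TMM), -0.73 (positive controls alone), -0.0052 (background subtracted), -0.0045 (pseudocount 10) and, without P14 samples 4 and 5, -1.02 (positive controls) and -0.090 (total counts), and ranged from -0.086 to 0.057 over single samples left out. Irf3 went to 0.045 (limma on scaled counts), 0.17 (limma on the authors' values), 0.017 (all 14 reference genes), 0.053 (authors' factors), 0.057 (background subtracted) and 0.040 (pseudocount 10), and from -0.23 to 0.0088 over single samples. With positive controls alone Irf4 was at -0.17, Irf5 at -0.38 and Irf8 at -0.70, and without P14 samples 4 and 5 at -0.65, -0.77 and -1.12. Without those samples Irf8 was also at -0.12, and at -0.20 with total counts. The log2 ratio of Irf3 to Irf1 differed by 0.047, by -0.39 without those samples and by -0.17 to 0.17 over single samples, and that of Irf8 to Irf1 by 0.21 and by -0.10 without those samples. No paired analysis was possible because the ages share no sample number. Irf4 and Irf7 at 26 and 28 raw counts in P14 sample 5 carry a counting error of 19.6% and 18.9%.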
